A study of Mus musculus with 4 samples.

Results

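The genes described here are 10 members of the JAK-STAT pathway: the suppressors of cytokine signalling Socs1 to Socs6 and their relative Cish, 7 feedback inhibitors, and the 3 transcription factors Stat3, Stat5a and Stat5b. They were chosen by gene symbol, and all 10 were found among the 45777 genes of the deposited table. RNA was sequenced from 4 cultures of C2C12 myotubes, the multinucleate muscle cells that this mouse myoblast line forms in low serum, here 2% horse serum. The groups were clenbuterol, a control for clenbuterol, EPS and a control for EPS, with 1 library each, and the protocol field names 30 ng/ml clenbuterol for every library, controls included. EPS is read as electrical pulse stimulation, which the labels do not spell out, and clenbuterol is a β2-adrenergic agonist that raises cyclic AMP. Pulse settings, exposure times and any pooling of wells are not stated in the labels. All 4 libraries thus describe 1 cell line.

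The EPS pair carries a conflict that touches every EPS value. The record titled EPS holds data named for its control, and the record titled as the control holds data named for EPS. Groups follow the titles here, and both libraries are named by title. Should the data names be the right ones, each direction given for EPS is the opposite. With 1 library per group there is no replicate, so no difference between conditions was tested. Folds are ratios of CPM, estimated counts scaled to library size with TMM factors, with a 95% counting interval that covers counting error only. Differences between cultures are not part of that interval. TPM, the level per transcript length, is given when genes are compared with each other.

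Cytokine and growth hormone receptors have no kinase domain of their own and signal through JAK kinases bound to their tails. JAKs phosphorylate STAT proteins, which pair, enter the nucleus and switch on genes, among them those of the SOCS family. SOCS proteins then dampen the signal, by blocking the JAK, by covering the docking site on the receptor, or by marking signalling proteins for breakdown through the SOCS box. In skeletal muscle, STAT3 acts downstream of interleukin-6 and leukaemia inhibitory factor, and STAT5 downstream of growth hormone.

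The STAT proteins bind a palindrome called the GAS element, with the letters TTCNNNGAA. Windows from 250 bases before to 50 bases after the start site were searched for it on both strands, in RefSeq promoters of GRCm38.p6, the assembly called mm10. The table held 7 of the 10 members, and the match was present for 2 of them, Socs3 and Cish, against 8.3% of all 32851 promoter windows. These windows belong to 27025 genes, and some genes, Stat5a and Stat5b among them, have a second window. Counts of genes given here, for each element, thus stand beside shares of windows. The Socs3 match began 154 bases before the start site. That start site, and the whole Socs3 window, lie inside the deposited span of the gene, chr11:117966079-117970336. Cish held 2 matches in the first 20 bases after its start site. At any position of the window, 0.457% of all windows held at least 2. The windows of Socs3, the most abundant SOCS transcript, and Cish, the least, are shown with the GAS matches in capitals, with Socs1 beside them as a window without a match. They lie at chr11:117969367-117969616 on the minus strand, chr9:107296409-107296678 on the plus strand and chr16:10785537-10785786 on the minus strand.
Socs3: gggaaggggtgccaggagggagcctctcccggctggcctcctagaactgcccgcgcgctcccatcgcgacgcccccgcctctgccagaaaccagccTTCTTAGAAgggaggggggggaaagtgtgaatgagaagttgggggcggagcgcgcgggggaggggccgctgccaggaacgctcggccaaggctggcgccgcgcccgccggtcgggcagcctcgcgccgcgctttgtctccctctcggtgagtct
Cish: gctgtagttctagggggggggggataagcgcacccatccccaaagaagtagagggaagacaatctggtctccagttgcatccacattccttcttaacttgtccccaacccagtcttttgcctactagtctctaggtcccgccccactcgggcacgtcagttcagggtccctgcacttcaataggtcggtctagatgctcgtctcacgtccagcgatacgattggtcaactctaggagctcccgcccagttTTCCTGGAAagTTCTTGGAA
Socs1: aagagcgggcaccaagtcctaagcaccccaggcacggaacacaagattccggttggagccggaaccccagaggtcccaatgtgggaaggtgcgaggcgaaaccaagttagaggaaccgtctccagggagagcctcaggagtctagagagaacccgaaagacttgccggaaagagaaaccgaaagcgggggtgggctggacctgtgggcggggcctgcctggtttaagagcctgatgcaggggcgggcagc
The full cyclic AMP response element TGACGTCA was found in none of the windows of these 7 genes and in 1.79% of all windows. Its shorter form TGACG, which the full element contains, was found on either strand for 3 of them, Cish, Socs4 and Stat5a, and in 20.8% of all windows. A match is a run of letters and not a measured site.

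Totals of estimated counts ran from 32640884 to 35597074 per library, and 13412 to 13489 genes reached a TPM of 1. All 8 myotube markers were expressed in every library, with a summed TPM of 19049 with clenbuterol, 18473 in its control, 12277 in the EPS library by title and 16764 in the EPS control by title. In such bulk RNA, fewer cells of a type and less RNA per cell cannot be told apart. Of 4 myoblast markers the summed TPM was 205 with clenbuterol, 124 in its control, and 96.4 and 83.9 in the EPS library and EPS control by title. Most of that gap was Id3, at 116 TPM with clenbuterol against 35.9 in its control, while Myod1 stood at 84.0 and 82.0 TPM. The part of this in the clenbuterol results was not tested. Of 6 leukocyte markers, Ptprc, Adgre1 and Cd3e were at 0 in all 4 libraries, and Cd68 was the 1 marker above a TPM of 1. The 4 endothelial and 4 adipocyte markers stayed below a TPM of 1. Among 4 fibroblast markers, Dcn reached 210 to 231 TPM, a gene that this muscle line may also express. Pdgfra stood at 3.46 to 4.33 TPM and Dpt at 0.675 to 1.36 TPM, and Lum was at most 0.32. Of 10 cyclic AMP targets, 8 were at least 2-fold higher with clenbuterol, against 1% of all genes compared. Nr4a3 was among the 8, at 50.5 against 2.66 TPM. Rgs2, also among the 8, reached a TPM of 1 in the clenbuterol library but not in its control. Genes were compared if either library of the pair reached that level, so Rgs2 could only come out higher. The list was also chosen with earlier results of these data known, so its share beside the 1% is a description and not an independent check.

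Levels within each library spanned a wide range. Stat3 was the most abundant member in all 4 libraries, at a TPM of 125 to 157, followed in every library by Socs3 and then Socs2. Socs5, Socs6, Socs4, Stat5b and Stat5a formed a middle group between 16.5 and 36.6 TPM, in an order that differed between libraries. Socs1 lay at 2.89 to 5.73 TPM, and Cish stayed below 0.47 TPM on 8 to 21 counts. Stat3 exceeded the sum of Stat5a and Stat5b 2.84-fold to 3.17-fold, and Stat5b exceeded Stat5a 1.46-fold to 1.58-fold.

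**Figure D1:**
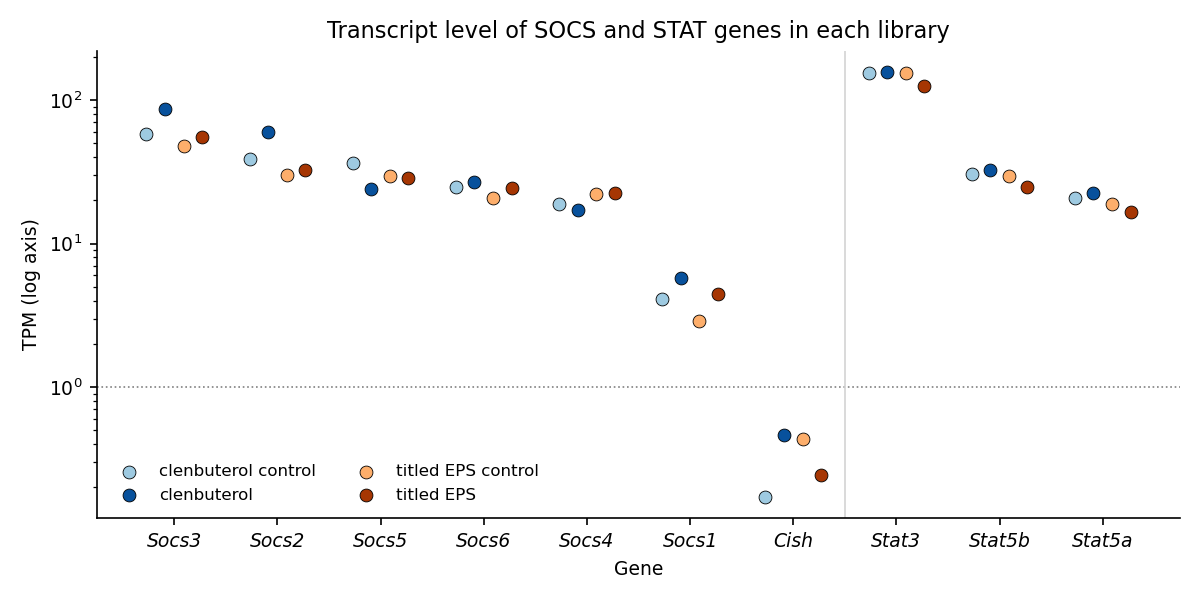
TPM (log axis) of the 10 genes in each of the 4 libraries, 1 point per library, with SOCS genes left and STAT genes right of the vertical line. The dark blue clenbuterol point is the highest for 8 of the 10 genes and the lowest for Socs4 and Socs5, and only Cish lies below the dotted line at 1 TPM.

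The first question was how these genes differed with clenbuterol. Socs2 and Socs3 were about 1.5-fold higher than in the control, Socs5 was 1.51-fold lower, and the 3 STAT genes lay within 1.09-fold of it. None of the 9 members that reached 1 TPM in the pair was 2-fold higher or lower in TPM plus 1, where 1.52% of the 13788 genes compared were, 1% higher and 0.515% lower. At 1.5-fold, a size chosen after the values were seen, 2 of the 9 passed, Socs2 and Socs5, against 4.44% of all genes compared (2.52% higher and 1.92% lower) and 2.26% of those that reached 5 TPM. An interval that leaves out 1 is common at this depth, and 31.6% of all genes compared had one in this pair.

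Socs3 encodes the inhibitor that docks on gp130, the shared receptor chain of the interleukin-6 family. Its TPM was 86.2 with clenbuterol, 58.4 in the clenbuterol control, 55.5 in the EPS library by title and 47.9 in the EPS control by title. The clenbuterol library was thus the highest, and the other 3 lay closer to each other than to it. The counts of 3398 and 2345 gave a 1.49-fold difference (1.41 to 1.57) from its own control, and 2.72% of all genes compared lay further out on the higher side. The gene lies at chr11:117966079-117970336 in mm10, on the minus strand.

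Socs2 encodes a brake on growth hormone receptor signalling. It stood at 60.0 TPM with clenbuterol against 39.0 in the control, and at 32.3 and 30.1 in the EPS library and EPS control by title. The clenbuterol library was again the highest of the 4. The fold was 1.55 (1.45 to 1.65) on 2516 and 1676 counts, and 2.38% of all genes compared lay further out on the higher side. The clenbuterol control itself was 1.34-fold above the EPS control by title (1.24 to 1.44) and 1.21-fold above the EPS library by title (1.13 to 1.30), which the data names call the control. Socs2 lies at chr10:95383903-95417321 on the minus strand and shares 502 bases with Gm33230 on the plus strand, whose TPM was at most 0.448. Of its runs of 100 bases, 2.31% also stand in Gm9847, at 2.71 to 4.12 TPM.

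Socs5, a family member linked to the epidermal growth factor receptor, stood on the opposite side. Its TPM was 23.9 with clenbuterol, 36.6 in the control, 28.8 in the EPS library by title and 29.6 in the EPS control by title. Here the clenbuterol library was the lowest and its control the highest, with the EPS pair between them. On 1582 and 2456 counts Socs5 was 1.51-fold lower than in the control (1.42 to 1.61), and 1.85% of all genes compared lay further out on the lower side. Against the EPS library and EPS control by title the same library was 1.18-fold lower in both cases (1.11 to 1.27 for each). Socs5 lies at chr17:87107278-87137647 on the plus strand.

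Between Socs2 and Socs5 the order of levels also differed. Within the clenbuterol library Socs2 had 2.51 times the TPM of Socs5, and in the other 3 libraries 1.02 to 1.12 times. The ratio of Socs3 to Stat3 in TPM was 0.550 with clenbuterol and 0.381 in its control. In the EPS library and EPS control by title that ratio was 0.445 and 0.313.

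Socs1, Socs6, Socs4 and Cish were the other inhibitors chosen here. The family member Socs7 was not among the 10, and stood at 23.8 TPM with clenbuterol and 24.3 in its control. Socs1, which blocks JAK kinases directly and restrains interferon signalling, was counted 104 times with clenbuterol and 79 times without, a 1.35-fold difference (1.00 to 1.84) at 5.73 and 4.09 TPM. For Socs1 the clenbuterol control lay 1.48-fold above the EPS control by title (1.03 to 2.14), and within 1.01-fold of the EPS library by title (0.735 to 1.39), which the data names call the control. Socs6, which has been linked to insulin receptor and KIT signalling, was 1.09-fold higher (1.03 to 1.16) at 26.8 against 24.8 TPM, and shares 4.35% of its runs of 100 bases with Gm9449. Socs4, like Socs5 a longer protein linked to the epidermal growth factor receptor, was at 17.1 and 18.8 TPM, and its interval included 1 (0.818 to 1.04). Cish, a classical STAT5 target, had 21 and 8 counts, a ratio of 2.70 (1.15 to 7.05). The library titled EPS control, at 19 counts, was close to the clenbuterol library.

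**Figure D2:**
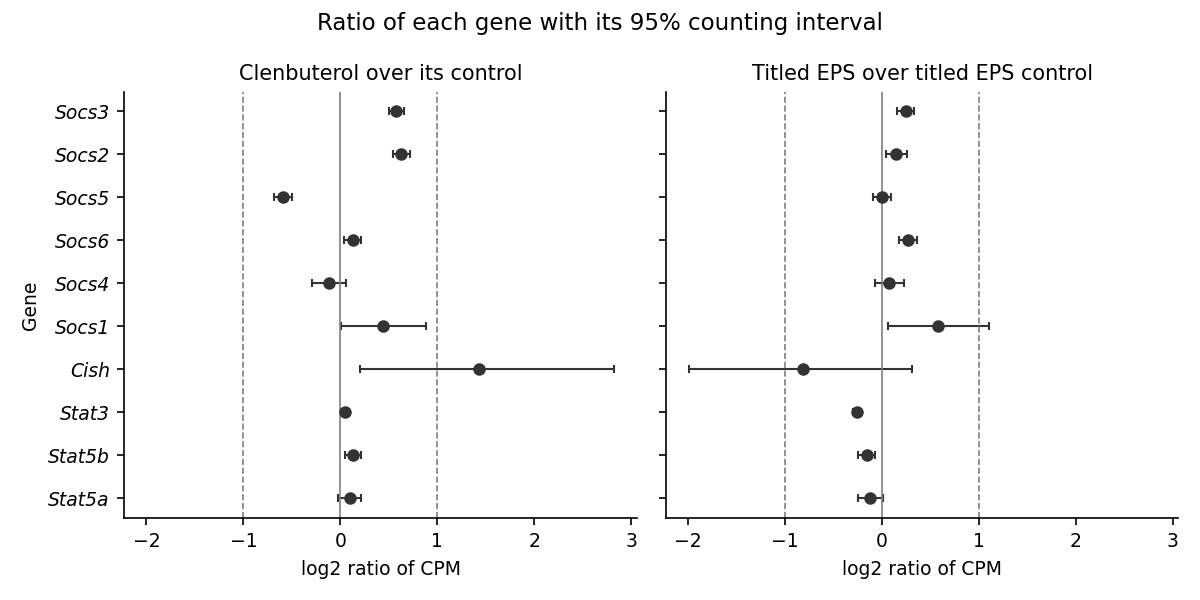
log2 ratio of CPM of each gene (points) with its 95% counting interval (bars), for clenbuterol over its control (left) and titled EPS over titled EPS control (right), with dashed lines at 2-fold. Among genes above 1 TPM, Socs2 and Socs3 lie highest at left and Socs5 lowest, while Cish has the widest bars in both panels on at most 21 counts.

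STAT transcripts were nearly level between clenbuterol and its control. Stat3, the main effector of interleukin-6 type cytokines, stood at 157 and 153 TPM, a 1.04-fold difference (1.01 to 1.07) on 10138 and 10065 counts. Stat5b, the main mediator of growth hormone signals, was at 32.7 and 30.7 TPM, 1.09-fold higher (1.03 to 1.16). Stat5a, its close relative first known from the mammary gland, was at 22.4 and 20.8 TPM, and its interval included 1 (0.986 to 1.16). Stat5b, Stat5a and Stat3 lie side by side on chromosome 11, from 100780731 to 100939594 in mm10, with 347 bases between Stat5b and Stat5a and 1637 between Stat5a and Stat3. Of all runs of 100 bases in the transcripts of Stat5a, 3.44% also stand in Stat5b, and 4.79% the other way round, so a small part of their reads can be shared.

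The second comparison was that of the EPS pair, read by title. No member reached 2-fold or 1.5-fold in TPM plus 1, where 2.01% and 6.58% of the 13828 genes compared did. At 2-fold 0.868% of all genes were higher by title and 1.14% lower, and at 1.5-fold 2.34% higher and 4.24% lower. Of all genes compared in this pair, 50.3% had an interval that leaves out 1. By title, Socs1, Socs3 and Socs6 were 1.19-fold to 1.49-fold higher and Stat3 and Stat5b 1.11-fold to 1.19-fold lower. With the data names in place of the titles these directions would be the opposite.

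Stat3 had 125 TPM in the EPS library by title and 153 TPM in the EPS control by title. The other 2 libraries stood at 157 and 153 TPM, so the EPS library by title was the lowest of the 4. Its counts of 8791 and 9480 made Stat3 1.19-fold lower by title (1.16 to 1.23). Stat5b was lowest in the same library, at 24.6 TPM against 29.6 to 32.7 in the other 3, and was 1.11-fold lower by title (1.05 to 1.19). Stat5a, at 16.5 against 18.7 TPM, was also lowest there, with an interval for titled EPS over its control that included 1 (0.842 to 1.01). The summed TPM of the 8 myotube markers was lowest in that library too, 12277 against 16764 in the EPS control by title. Acta1 made up most of that gap, at 5723 against 9090 TPM. The other markers were also lower by title, with Myog at 600 against 673 TPM. The part of these marker levels in the STAT values was not tested.

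Socs1 showed the widest ratio of the pair among members above 1 TPM. By title, 86 counts stood against 52, a 1.49-fold difference (1.05 to 2.15) at 4.42 and 2.89 TPM. Socs6 was 1.21-fold higher by title (1.13 to 1.28) at 24.4 and 20.7 TPM, and Socs3 1.19-fold higher (1.12 to 1.26) at 55.5 and 47.9 TPM. Socs2 was 1.11-fold higher by title (1.03 to 1.20). For these 4 genes the EPS control by title was the lowest of all 4 libraries. Socs4 and Socs5 had intervals that included 1, Socs4 at 22.6 and 22.0 TPM and Socs5 at 28.8 and 29.6 TPM. Cish, with 12 and 19 counts, gave a ratio of 0.570 (0.252 to 1.24).

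**Figure D3:**
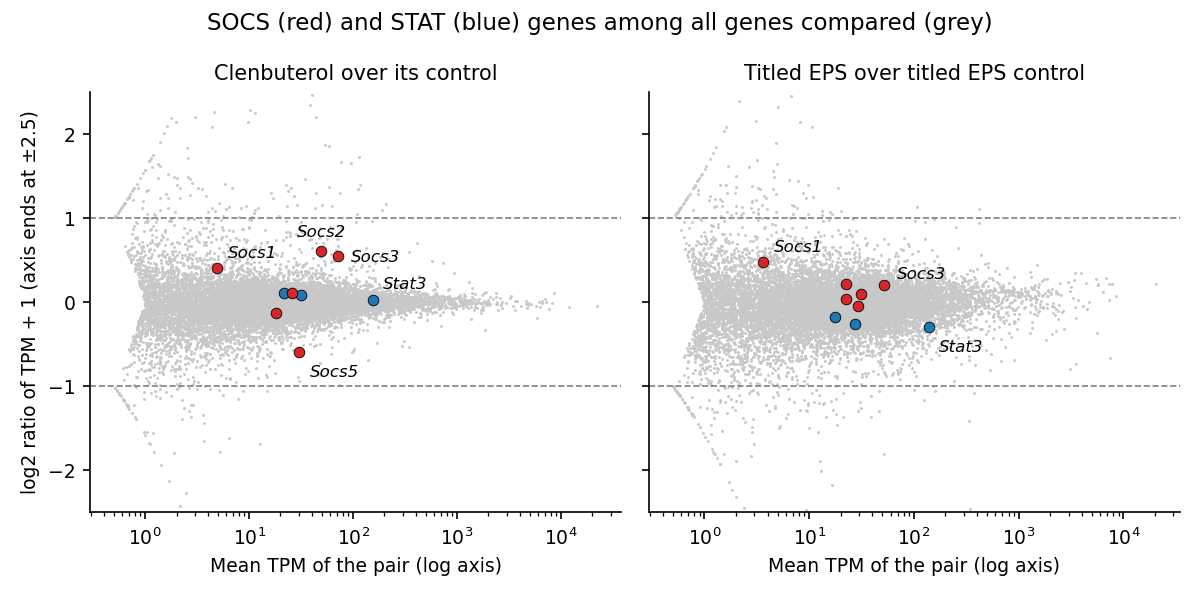
log2 ratio of TPM plus 1 against the mean TPM of the pair (log axis) for each gene with at least 1 TPM in a library of the pair, with SOCS genes in red, STAT genes in blue and 2-fold marked by dashed lines. All 9 coloured genes lie inside the dashed lines in both panels, with Socs2, Socs3 and Socs5 at the edge of the grey cloud at left, and 10 genes at left and 13 at right lie beyond the axis.

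The rest of the pathway was followed in 8 lists of 113 genes. Members of the signalling core differed little with clenbuterol. Of 6 measured JAK kinases and other STAT genes none was 2-fold or 1.5-fold different, where 1.52% and 4.44% of all genes compared were. Their median log2 ratio was −0.03 beside −0.01 over all genes compared. Jak3, a kinase best known from lymphocytes, was the lowest at −0.36 on 95 and 131 counts. Stat2 stood at −0.18 and Jak1, a kinase of many cytokine receptors, at 0.07. In the EPS pair the median by title was −0.17, with Stat2 (−0.28) and Jak2 (−0.27) lowest and Jak3 at −0.10.

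SOCS proteins work with the adaptors elongin B and C, cullin 5 and the RING protein Rnf7, and other brakes on the pathway include PIAS proteins and tyrosine phosphatases. Of these 14 genes none reached 1.5-fold in either pair, where 4.44% of all genes compared did with clenbuterol and 6.58% in the EPS pair. Medians were −0.03 with clenbuterol and −0.06 in the EPS pair by title. Ptpn2, a phosphatase that acts on JAK1 and STATs, was the highest with clenbuterol at log2 0.34 in TPM plus 1 but 1.11-fold in CPM (1.02 to 1.21), followed by Ptpn1 at 0.13. Ptpn6, the phosphatase of blood cells, was the lowest at −0.49 on 43 and 70 counts, and Pias1 stood at −0.32 in TPM plus 1 and 0.921-fold in CPM. By title, Eloc (0.34) and Rnf7 (0.22) were the highest in the EPS pair and Sh2b3 (−0.27) and Pias4 (−0.22) the lowest.

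Receptors were close to level with clenbuterol, with a median of −0.01. Of 17 measured genes 0 passed 1.5-fold, where 4.44% of all genes compared did. Il4ra, which interleukin-4 and interleukin-13 share, was highest at log2 0.24, followed by Ifnar2 at 0.23, with Il6ra at −0.21 and Il11ra1 at −0.30 lowest. Il6st, which encodes gp130, stood at 104 and 103 TPM. In the EPS pair 1 of 17 receptor genes passed 1.5-fold, Il6ra, the binding chain for interleukin-6, where 6.58% of all genes compared did. Il6ra had 4.31 TPM in the EPS library by title and 8.08 TPM in the EPS control by title, 0.547-fold (0.462 to 0.647). By title, Il11ra1 (0.24) and Il2rg (0.20) were the highest receptors.

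Ligands spread far more widely. Those measured in either pair include Csf1, whose receptor gene Csf1r was not in the receptor list. Of 9 measured with clenbuterol 1 was at least 2-fold higher and 1 at least 2-fold lower, with a median of 0.31. Of all genes compared, 1% were higher and 0.515% lower by that much. Il6 had 50.4 TPM against 1.22 TPM on 820 and 21 counts. That was a 40.2-fold difference (26.1 to 65.3), beside the 1.49-fold difference of Socs3. Lif, which encodes leukaemia inhibitory factor, was 1.72-fold higher (1.62 to 1.83) at 46.1 against 26.1 TPM. Cntf, ciliary neurotrophic factor, stood at log2 −1.34 and Tslp, an epithelial cytokine of the interleukin-7 type, at −0.79. In the EPS pair 1 of 10 ligands was at least 2-fold higher by title, against 0.868% of all genes compared. This was Il15, at 3.15 against 0.884 TPM, which passed the filter through the EPS library by title alone. Il11 stood at 0.62 on 66 and 27 counts. It too passed the filter through the EPS library by title alone, so Il11 and Il15 could only come out higher. Clcf1 stood at −0.68 and Il6 at −0.67, the latter on 32 and 54 counts.

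STAT targets were followed in 3 lists, here for the clenbuterol pair. Of 17 measured genes listed as STAT3 targets, 3 were at least 2-fold higher and none lower, where 1% of all genes were higher, and the median was 0.24. These were Fos, an immediate early gene, at log2 1.47, Vegfa, the vascular growth factor, at 1.17, and Cebpd, a C/EBP transcription factor gene, which was 2.24-fold higher in CPM (2.07 to 2.43). At 1.5-fold there were 7, against 2.52% of all genes compared. Many of these genes also answer to cyclic AMP or other signals, so the list does not mark STAT3 alone. Birc5 (−0.24) and Ccnd1 (−0.23), which serve cell division, were its lowest. Among STAT5 targets 0 of 9 passed 1.5-fold, where 4.44% of all genes compared did. Their median was 0.04, with Pim1 (0.23) and Pim2 (0.22) highest, and Ccnd1 and Ccnd2 (−0.21) lowest. Of 7 interferon targets 1 passed 1.5-fold, Ifit3 (0.59) on 69 and 40 counts, where 4.44% of all genes compared did. The median of these 7 was 0.22, with Irf7 at 0.35, Ifit1 at 0.05 and Irf9 at −0.24. Ifit1 passed the filter through the clenbuterol library alone, at 1.06 against 0.997 TPM. No test compared these lists.

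By title, STAT3 targets in the EPS pair had a median of −0.07 over 18 genes. Of these, 3 were at least 1.5-fold lower, against 4.24% of all genes compared. Saa3, an acute phase gene and 1 of the 3, was listed at 0 in 3 libraries and had 206 counts in the EPS control by title. It passed the filter through that library alone, so it could only be called lower. Saa3 is the lowest of the list at any bound, so its size does not change the median, though its inclusion can. Cebpb stood at −0.84, and Bcl2l1 (0.29) and Ccnd1 (0.27) were the highest. STAT5 targets had a median of 0.00, with Id1 (0.85) and Bcl2l1 highest and Bcl6 (−0.58) and Pim1 (−0.50) lowest. Interferon targets had a median of 0.05 and none of 9 passed 1.5-fold, where 6.58% of all genes compared did. They ran from Tap1 at −0.21 and Ifit3 at −0.11 to Irf7 at 0.23 and Cxcl10 at 0.29. Tap1, Irf7 and Cxcl10 passed the filter only through the library where each was higher, on 13 to 42 counts. The filter thus fixed the sign of each. All 8 measured cyclic AMP targets lay below 0 by title, from Fosl2 at −0.83 and Pde4b at −0.78 to Sik1 at −0.35 and Crem at −0.15. In the clenbuterol pair the same list ran from Pde4d at 0.49 and Crem at 0.90 to Nr4a2 at 3.27 and Nr4a3 at 3.81.

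**Figure D4:**
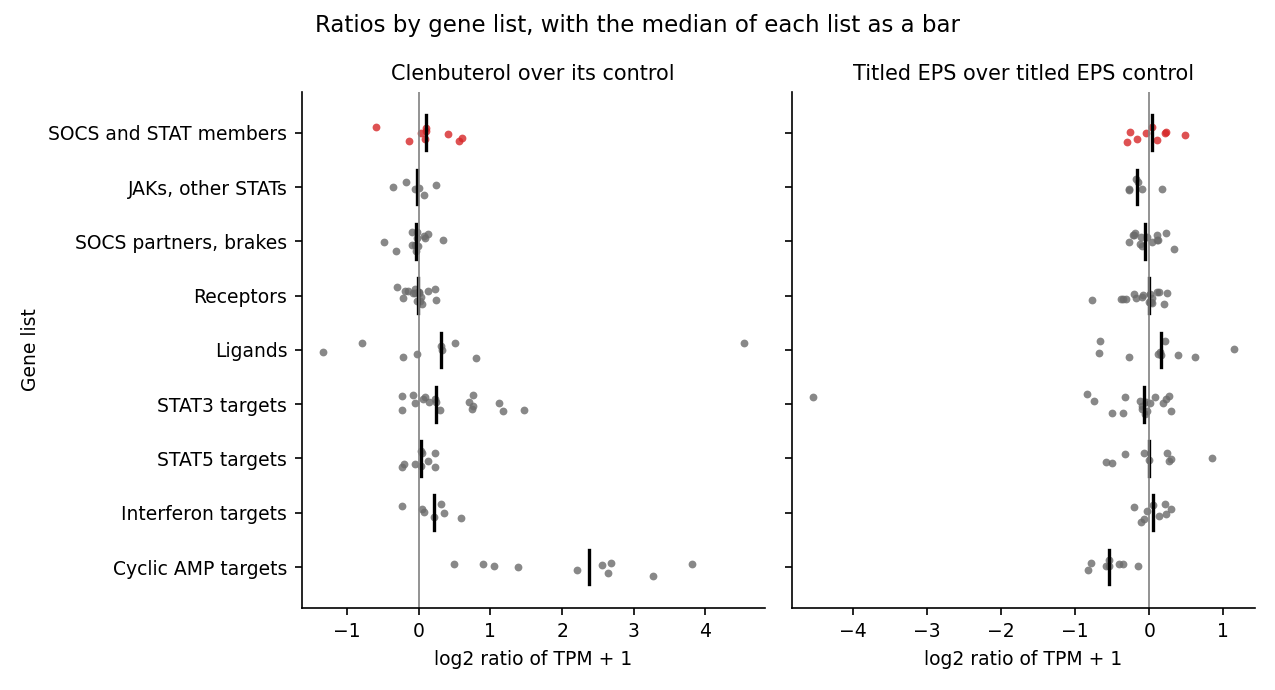
log2 ratio of TPM plus 1 of each measured gene (1 point per gene, SOCS and STAT members in red, spread vertically for display), by list, with the list's median as a bar, for clenbuterol (left) and titled EPS (right) over their controls, on separate axes. At left the cyclic AMP targets have the median farthest from 0, at 2.38, and the SOCS and STAT members a median of 0.10, and the lowest point at right is Saa3, which was at 0 counts in the EPS library by title.

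Genes with a like pattern over the 4 libraries were sought for the 4 members whose TPM plus 1 differed at least 1.5-fold between their highest and lowest library and that had at least 50 counts. Likeness was the Euclidean distance between centred log2 CPM profiles, over 11760 other protein-coding genes with at least 100 counts in all. Distances over only 4 libraries are a description, and many genes can lie close by chance. Nearest to Socs2 were Zkscan5 (a distance of 0.0430), Ttc25 (0.0906) and the α-arrestin gene Arrdc3 (0.119). Zkscan5, a zinc finger gene, stood at 25.0 TPM with clenbuterol against 16.3, and at 13.1 and 12.2 in the EPS library and EPS control by title. Socs3 had Dmtn (0.0881), Ttc25 (0.111) and Arhgap26 (0.138) nearest, all below 3 TPM. Socs5 lay closest to Map3k14 (0.0450), which encodes the NF-κB inducing kinase, at 17.0 TPM with clenbuterol against 25.5 in the control. The zinc finger genes Zfp189 (0.0636) and Zfp763 (0.0734) came next. Nearest to Socs1 were Plekhb1 (0.0576), Rapgef3 (0.0993), which encodes a cyclic AMP sensor, and Vsig10l (0.0998).

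**Figure D5:**
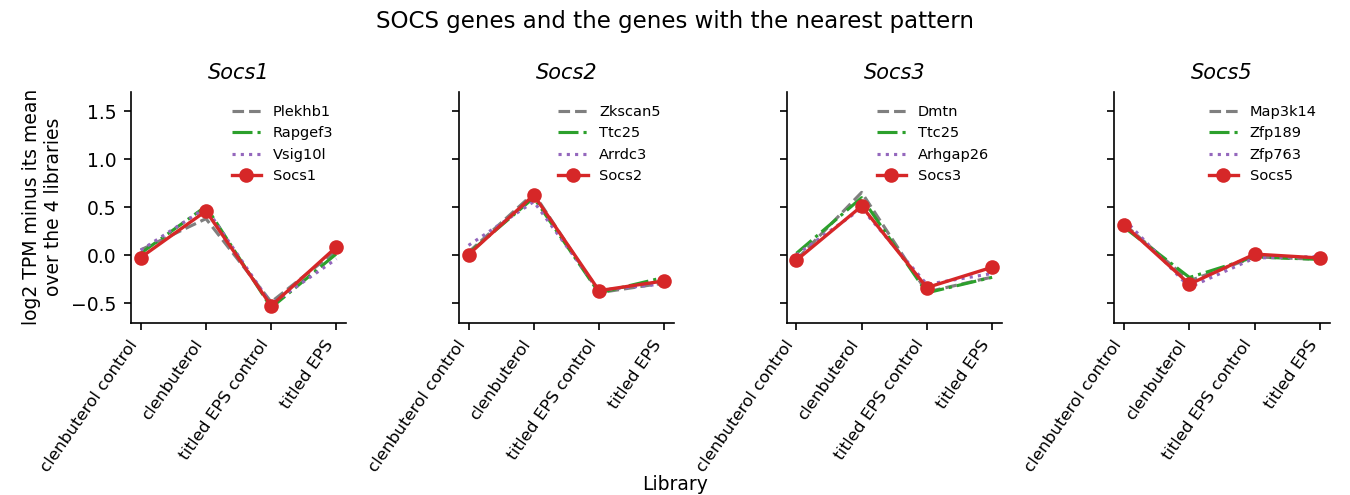
log2 TPM minus its mean over the 4 libraries (vertical) in each library (horizontal) for Socs1, Socs2, Socs3 and Socs5 (red) and the 3 genes nearest to each (other colours). Lines join libraries only to show the pattern, which peaks at clenbuterol for Socs1, Socs2 and Socs3 and has its lowest point there for Socs5.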

How the data were processed

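Poly(A) RNA libraries were made with a stranded TruSeq kit, per the labels' protocols. Reads were aligned with HISAT2 to mm10, per the submitters' processing notes. No source used here gives the quantifier, annotation release or strand setting. The authors deposited a joint table of estimated counts, FPKM and TPM per gene, and a table per library of coverage, FPKM and TPM. Joint columns were assigned through the data name of each sample's own file, and joint and single TPM differed by over 0.001 for 1 to 3 genes per library and no member.

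From these, ratios of TPM plus 1 were taken over genes that reached 1 TPM in either library of the pair, and called at 2-fold. CPM used TMM factors (edgeR 4.0.16, R 4.3.3) and exact Clopper-Pearson intervals, tested on simulated counts. DESeq2 1.42.0 size factors served as an alternative. Spreadsheet dates were restored to symbols for 26 genes by gene ID. Other values came from Python 3.11.15, numpy 2.4.6, pandas 2.3.3, scipy 1.17.1 and matplotlib 3.10.9. All members are named, with the 2 highest and 2 lowest genes of each list and the 3 nearest genes of 4 members, except that some genes this rule names are not reported here. Other genes named (Il6st, Cebpd, Socs7, Myod1, Id3 and other markers, and genes that share bases with members) were chosen after their values were seen. Members and lists were chosen with earlier results of these data known.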

Additional observations from a re-analysis of the deposited data

How the results depend on the processing

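No paired analysis was possible because each group holds 1 library, and no library could be left out. Among members that passed the filter of 1 TPM, neither comparison had a member past 2-fold. This held under pseudocounts of 0.1 or 5 TPM, FPKM plus 1, the 3 CPM scalings and a minimum of 5 TPM. With no filter and the pseudocount of 1 TPM kept, none of the 10 passed either. Cish fell below the filter in both pairs, and its clenbuterol log2 ratio was 1.06 at a pseudocount of 0.1 TPM. With CPM and no filter, a choice made after the data were seen, 1 of 10 members passed 2-fold in the clenbuterol pair, Cish on 21 and 8 counts, where 21% of all genes did. The count at 1.5-fold was less steady. In the clenbuterol pair it was 2 (Socs2 and Socs5) and became 0 with a pseudocount of 5 TPM or in FPKM plus 1, and 3 with CPM and no filter, where 27.9% of all genes passed. In the EPS pair it was 0 and became 1 with a pseudocount of 0.1 TPM or CPM by library total (Socs1), and with CPM and no filter (Cish), where 10.2%, 9.51% and 30.1% of all genes passed. With clenbuterol all 10 members kept their sign under the 6 changes of unit or pseudocount. In the EPS pair 9 did, and the exception was Socs5, from −0.04 to 0.02 in log2. Of 60 such values in each pair, 5 in the EPS pair, all of Stat3 or Stat5b, and 0 with clenbuterol shifted from the reported value by more than the half-width of the counting interval. For Cish that half-width is a loose bound, since its clenbuterol interval ran from 1.15 to 7.05. Its clenbuterol log2 ratio ran from 0.08 to 1.44 over these settings. Depth limits Cish most, at 8 to 21 counts, and Socs1, at 52 to 104.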
